A study of Mus musculus with 4 samples.

Results

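The genes described here encode the sensors of RNA and DNA that lead to interferon, and the relay between those sensors and the interferon gene. They were chosen by name as Ddx58, Ifih1, Dhx58, Tlr3, Zbp1, Mavs, Tbk1, Irf3, Irf7 and Ifnb1. All 10 were measured, each by 1 probe set, among 19505 named genes on the array. RNA of MC38 cells was hybridised to Clariom S mouse arrays, which use 1 colour. MC38 is a mouse colon adenocarcinoma line. Of the 4 arrays, 2 are controls and 2 are CRISPR-Cas9 knockouts of Mgat5, which encodes a Golgi enzyme that branches N-glycans. The controls are WT, the plain MC38 condition, and MOCK, the empty vector condition, and the knockouts are titled KO T5 clone 1 and KO T5 clone 2. Each knockout array is a single clone with 1 array, and neither control is titled as a clone, so effects of cloning and of Mgat5 loss cannot be told apart.

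RNA from viruses or from the cell itself is read in the cytosol by RIG-I (Ddx58) and MDA5 (Ifih1), helicases that pass the signal to the mitochondrial adaptor MAVS. LGP2 (Dhx58) is a related helicase without the signalling domain, TLR3 reads double-stranded RNA in endosomes, and ZBP1 reads Z-form nucleic acid. TBK1 then phosphorylates IRF3 and IRF7, which enter the nucleus and switch on interferon beta (Ifnb1). Secreted interferon in turn raises the transcripts of several sensors and of Irf7, while Mavs, Tbk1 and Irf3 are held to be mainly constitutive.

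The deposited values are log2 signals whose distributions differed between arrays. The 75th percentile over 22206 probe sets ran from 8.87 in WT to 9.60 in clone 2, and the median difference, knockout minus control, was 0.18 as deposited and -0.02 after quantile normalization, which gives all arrays 1 distribution. Background was read from 5222 negative control features, whose median ran from 5.12 to 5.22 and whose 75th percentile ran from 6.29 to 6.56 over the arrays. All 11 markers of colon epithelium, Epcam, Cdh1 and Krt20 among them, stayed under that 75th percentile on all 4 arrays, so the epithelial label was not borne out by these markers. The same was true of 9 of 11 macrophage and dendritic cell markers, 6 of 7 lymphocyte markers and 5 of 7 fibroblast and endothelium markers. The lymphocyte marker Cd4 passed that percentile in clone 2 alone, at 6.76 beside 6.49 in MOCK, 5.91 in WT and 5.98 in clone 1. In the fibroblast and endothelium list Pdgfrb was bright on all arrays, at 11.42 to 12.02, and Col1a2 passed that percentile in clone 1 alone, at 6.99 beside 5.08 to 5.29 on the others. Its members Col1a1 and Acta2 were highest in clone 2, at 5.99 and 5.80, under that percentile; the part of these signals in the results was not tested. The macrophage and dendritic cell list had a median signal of 4.16 in MOCK and 4.10 in WT, against 4.32 in clone 1 and 4.21 in clone 2. The members of that list above background were Cd14 and Bst2, an interferon-inducible surface protein, which stood at 15.04, 13.69, 15.35 and 15.86 in the same order. The targeted gene Mgat5 stood at 8.19 in MOCK and 8.27 in WT, against 7.46 in clone 1 and 7.57 in clone 2, lower in each clone but not called (difference -0.71, limma adjusted p = 0.631). Where its probes lie relative to the edited site is not given in the sources used, so this is no check of the labels. Nothing in the labels says whether arrays came from separate cultures, so p-values measure only the spread between these arrays.

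In clone 2 the transcripts of 5 sensors, Ddx58, Ifih1, Dhx58, Tlr3 and Zbp1, stood between 1.96 and 3.67 log2 units above the mean of the controls. In clone 1 only Ddx58 among those 5 lay above both controls. The relay genes Mavs, Tbk1 and Irf3 were 0.80, 0.36 and 1.43 above the mean of the controls in clone 2. After quantile normalization these differences were 0.29, -0.15 and 0.91. Ifnb1 was not above background on any array. The limma test of both clones against both controls called 0 of the 10 genes at an adjusted p under 0.05, beside 0.0405% of all probe sets called, and 2 of the 10, Ddx58 and Irf7, had an unadjusted p under 0.05, beside 8.75% of all. After quantile normalization the numbers were again 0 and 2, beside 0.00450% and 8.92%, and with MOCK or WT left out 0 were called, beside 0.00450% and 0%. With clone 1 left out, the same test called 5 of the 10 higher, beside 2.16% of all probe sets, and with clone 2 left out it called 0, beside 0.594% called higher. Those repeats set a single clone against the pair of controls, so the lone clone is assumed to vary as the controls do.

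**Figure D1:**
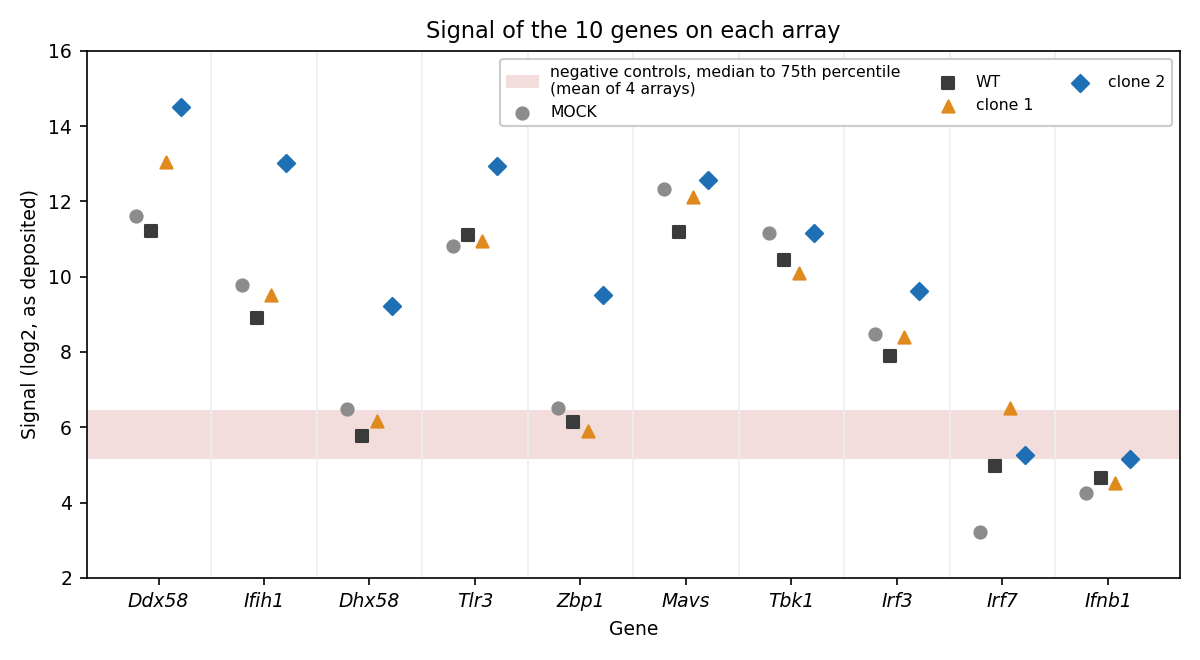
Signal of the 10 genes (log2, as deposited, vertical axis) on each of the 4 arrays, with each point 1 array and the shaded band the median to the 75th percentile of the negative controls. Clone 2 stands apart for Ddx58, Ifih1, Dhx58, Tlr3 and Zbp1, at 9.23 to 14.50, while Ifnb1 lies at 5.17 or below on all arrays.

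Among the RIG-I-like receptors, Ddx58, which encodes RIG-I, had a signal of 11.61 in MOCK and 11.21 in WT, against 13.04 in clone 1 and 14.50 in clone 2. Both clones lay above both controls, and clone 2 above clone 1. The control mean was 11.41 ± 0.29 and the knockout mean 13.77 ± 1.03 (SD, n = 2 per group), a 5.13-fold difference that did not pass the test (SE 0.50 log2 units, limma adjusted p = 0.155). The unadjusted 95% interval of that difference ran from 1.26 to 3.45 log2 units. After quantile normalization the 4 signals were 11.53, 11.75, 12.84 and 14.31, in the same order of arrays, and the difference was 1.94 (adjusted p = 0.367). Ddx58 was called when dim probe sets were left out (adjusted p = 0.00266), with a variance prior that follows signal (0.00825), and with clone 1 left out (0.00071), in a range over all fits of 0.00071 to 0.9996.

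Ifih1, which encodes MDA5, the sensor of long double-stranded RNA, stood at 9.78 in MOCK and 8.90 in WT, against 9.51 in clone 1 and 13.01 in clone 2. Clone 1 lay between the controls and clone 2 was 3.23 log2 units above the highest other array. The group means were 9.34 ± 0.62 and 11.26 ± 2.47 (SD, n = 2), a difference of 1.92 that did not pass (SE 0.87, limma adjusted p = 0.569), and the SD between the clones was larger than that difference. With clone 1 left out, Ifih1 rose by 3.67 log2 units, or 12.7-fold (limma adjusted p = 0.000172, in a range over all fits of 0.000172 to 0.9996). With dim probe sets left out and both clones kept it passed (limma adjusted p = 0.0343). That fit gave every member it tested the same SE, 0.55, beside 0.87 for Ifih1 without the filter. The pass therefore does not reflect how far the clones of this gene lay apart. After quantile normalization the signals were 9.77, 9.32, 9.40 and 12.72, with the same array apart.

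Dhx58, which encodes LGP2, had signals of 6.48 in MOCK, 5.76 in WT and 6.17 in clone 1, and 9.23 in clone 2. The first 3 lay between the median and the 75th percentile of the negative controls, so the level from which clone 2 differed is a level that background also reaches. The difference of the groups was 1.58 (SE 0.78, limma adjusted p = 0.606), and with clone 1 left out it was 3.11 (adjusted p = 0.000849, over all fits 0.000849 to 0.9996). After quantile normalization clone 2 stood at 8.91 and the other arrays at 5.96 to 6.53. The RIG-I-like receptors thus shared a high value in clone 2, while clone 1 was above both controls for Ddx58 alone.

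Tlr3, the endosomal sensor of double-stranded RNA, stood at 10.82 in MOCK and 11.11 in WT, against 10.95 in clone 1 and 12.93 in clone 2. MOCK, WT and clone 1 lay within 0.28 log2 units of each other, and clone 2 was 1.82 above the highest of them. The difference of the groups was 0.97 (SE 0.57, limma adjusted p = 0.674). With clone 1 left out Tlr3 rose 3.90-fold (adjusted p = 0.033), a call lost when the 3 arrays were also quantile-normalized (adjusted p = 0.0776, over all fits 0.033 to 0.9996). That repeat kept 4 of the 5 calls, beside 2.34% of all probe sets called higher. On quantile-normalized values WT stood at 11.64, MOCK at 10.76, clone 1 at 10.83 and clone 2 at 12.64, so the controls spread more and clone 2 stood 1.00 above WT.

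Zbp1, a sensor of Z-form nucleic acid that also starts necroptosis, stood at 6.50 in MOCK and 6.15 in WT, against 5.90 in clone 1 and 9.51 in clone 2. As for Dhx58, MOCK, WT and clone 1 were under the 75th percentile of the negative controls. Those 3 arrays are therefore not ranked, and clone 2 alone stood clear of background. The difference of the groups was 1.38 (SE 0.87, limma adjusted p = 0.706), and with clone 1 left out it was 3.19 (adjusted p = 0.000512, over all fits 0.000512 to 0.9996). After quantile normalization clone 2 was 2.64 above the highest other array.

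Mavs, the adaptor on mitochondria, was bright on all arrays, at 12.33 in MOCK and 11.20 in WT, against 12.13 in clone 1 and 12.56 in clone 2. Clone 1 lay between the controls, and clone 2 was 0.24 log2 units above MOCK. The groups differed by 0.58 (SE 0.45, 95% interval -0.42 to 1.59, limma adjusted p = 0.755), and by 0.14 after quantile normalization (interval -0.62 to 0.89). The controls themselves were 1.13 apart as deposited and 0.49 after quantile normalization.

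Tbk1, the kinase that joins the RNA and DNA sensing routes, stood at 11.17 in MOCK and 10.43 in WT, against 10.11 in clone 1 and 11.16 in clone 2. Clone 1 was the lowest array and clone 2 lay between the controls. The groups differed by -0.17 (SE 0.46, interval -1.20 to 0.85, limma adjusted p = 0.948). After quantile normalization the signals were 11.11 and 10.92 in MOCK and WT, 9.98 in clone 1 and 10.86 in clone 2, a difference of -0.59 with both clones under both controls (adjusted p = 0.671). Tbk1 was the single member with a negative difference of the groups on either scale.

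Irf3, the transcription factor present before infection, stood at 8.47 in MOCK and 7.89 in WT, against 8.40 in clone 1 and 9.61 in clone 2. Clone 1 lay between the controls and clone 2 was 1.14 log2 units above MOCK, or 0.78 after quantile normalization. The groups differed by 0.82 (SE 0.47, interval -0.22 to 1.86, limma adjusted p = 0.670), and with clone 1 left out by 1.43 (adjusted p = 0.183). Of the relay genes Mavs, Tbk1 and Irf3, this was the one at least 1 log2 unit above both controls in clone 2 as deposited.

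Irf7, the inducible factor that amplifies interferon output, did not follow the sensors. Its signal was 3.22 in MOCK and 4.96 in WT, against 6.50 in clone 1 and 5.26 in clone 2. Both controls were under the median of the negative controls and clone 2 was just above it, so no fold is given, and clone 1 alone passed the 75th percentile. Both clones lay above both controls, and clone 1, not clone 2, was the highest array on both scales (quantile-normalized 3.19, 5.06, 6.46 and 5.14 in the same order). The test gave a limma adjusted p of 0.405, and 0.00424 with the variance prior that follows signal, over all fits 0.00424 to 0.9996.

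Ifnb1, the product of the route, stood at 4.25 in MOCK and 4.65 in WT, against 4.51 in clone 1 and 5.17 in clone 2, under the median of the negative controls on each array (limma adjusted p = 0.819). Clone 2 was the highest, but no fold is given at this level. Of 18 other interferon genes measured, 17 stayed under the 75th percentile of the negative controls on all arrays. The exception was Ifna5, an interferon alpha gene, at 7.41 in MOCK and 7.84 in WT, against 7.43 in clone 1 and 7.68 in clone 2, with both clones between the controls. After quantile normalization it stood at 7.46 and 8.20 in the controls and 7.34 and 7.41 in the clones, each clone under each control. The interferon alpha genes are close copies, and probe sequences were not used here to tell their signals apart. For Ifnb1 and the 17 dim genes a change was not detectable at this signal, and RNA taken from the cells at 1 time does not report secreted protein. Fewer cells that carry a transcript and less of it per cell cannot be told apart in bulk RNA, here or for the sensors.

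The median difference of the 10 genes from the mean of the controls was 1.70 log2 units in clone 2 and 0.12 in clone 1, beside 0.24 and 0.12 over all probe sets. After quantile normalization the medians were 1.23 and -0.10, beside -0.03 and -0.02 over all. Clone 2 was at least 1 log2 unit above both controls for 6 of the 10 genes, beside 7.14% of all probe sets, and for 5 after quantile normalization, beside 3.80%, with Irf3 lost. Among the 9429 probe sets whose mean exceeded the 75th percentile of the negative controls the shares were 11.3% and 5.15%. Clone 1 was that far above both controls for 2 of the 10, Ddx58 and Irf7, on either scale, beside 3.57% and 2.41% of all, but for Irf7 that step starts from controls at background. Both clones lay above both controls for Ddx58 and Irf7, or 2 of 10, beside 27.8% of all probe sets, or 19.2% after quantile normalization, so that count is not a result about these genes. Clone 2 exceeded clone 1 for 9 of the 10, beside 58.9% of all probe sets, with a median difference of 1.34 beside 0.13, and by at least 1 log2 unit for 7, beside 8.60%. On quantile-normalized values the numbers were 9, beside 49.4%, and 5, beside 5.54%, with a median of 1.23 beside -0.01. Clone 2 exceeded both controls for 9 of the 10, beside 50.8% of all named genes, or 36.4% after quantile normalization, and clone 1 for 2, beside 41.2% and 35.2%. This difference between the clones rests on 1 array each and was not tested. MOCK minus WT had a median of 0.49 over the 10 genes, and 0.19 after quantile normalization. By the members' usual regulation, the 6 genes known to be interferon-inducible had a median of 3.10 in clone 2 and 0.11 in clone 1, and Mavs, Tbk1 and Irf3 a median of 0.80 and 0.22. After quantile normalization these medians were 2.67 and -0.13, and 0.29 and -0.08.

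**Figure D2:**
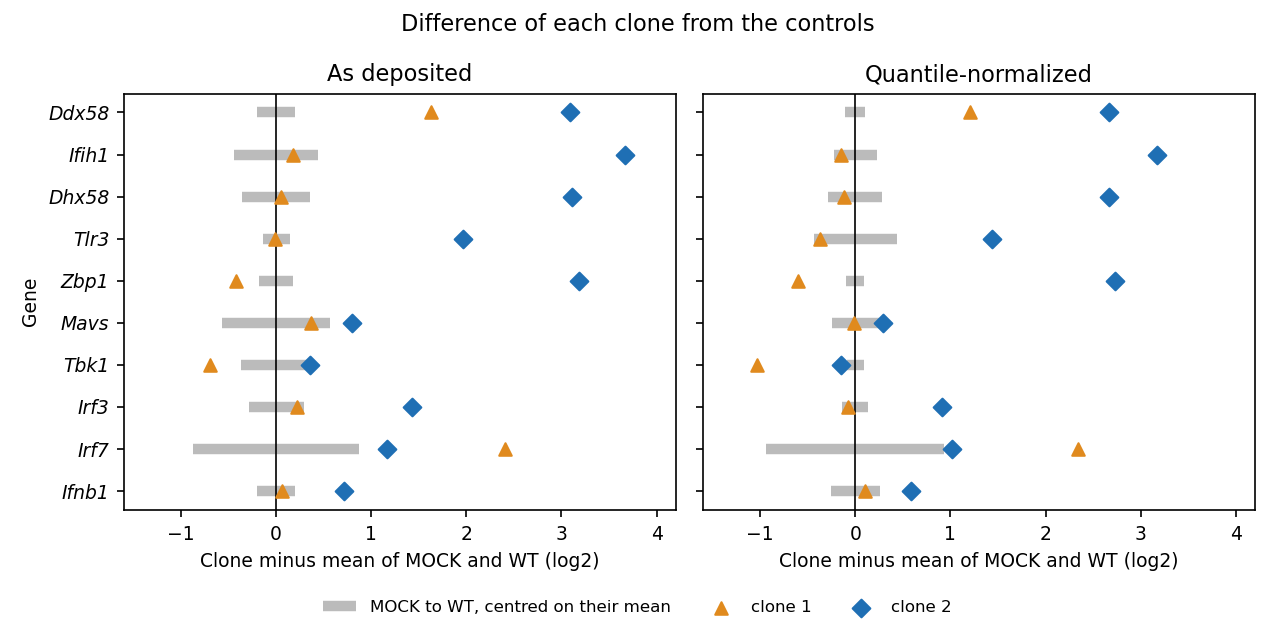
Difference of clone 1 and of clone 2 from the mean of MOCK and WT for each gene (log2, horizontal axis), as deposited and after quantile normalization, with grey bars spanning the distance between MOCK and WT centred on their mean. Clone 2 lies to the right of the grey bar for 9 of the 10 genes, Tbk1 being the other, and clone 1 for Ddx58 and Irf7 alone, on either scale; over all named genes the shares were 50.8% and 41.2% as deposited and 36.4% and 35.2% after quantile normalization.

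Ddx58 lies on chromosome 4, and its neighbours there were high in both clones too. The 5 measured genes on either side, in the order of the RefSeq table, were taken whatever their values, and 6 of these 10 exceeded the 75th percentile of the negative controls on at least 1 array. In all 6, each clone exceeded each control as deposited, beside 35.5% of probe sets brighter than the negative controls, and 5 did after quantile normalization, beside 18.2%. The limma test called 0 of the 10. At an unadjusted p under 0.05, 5 of the 10 were higher, beside 7.54% of all probe sets. After quantile normalization 3 were, beside 891 of 19505 named genes. With the variance prior that follows signal 1 was called, Smu1, beside 340 of 22206 probe sets in either direction. Aco1, the cytosolic aconitase gene next to Ddx58, stood at 11.61 in MOCK and 10.56 in WT, against 12.78 in clone 1 and 12.60 in clone 2. Smu1, a splicing factor, stood at 10.27, 9.66, 12.05 and 11.46 in the same order, and Aptx, a DNA repair enzyme, at 8.52, 7.92, 9.55 and 9.53. For these 3 genes clone 1 was as high as clone 2 or higher. Topors, Ndufb6 and C9orf72 were 0.75, 1.17 and 0.48 log2 units above the mean of the controls in clone 1 and 1.13, 0.67 and 1.52 in clone 2. The other neighbours, Ifnk, Lingo2, 1700009N14Rik and Tmem215, were under the median of the negative controls on all arrays.

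The difference of Ddx58 in clone 1, 1.63 log2 units, was within the range of these 6 neighbours, 0.48 to 2.08, and so was it after quantile normalization, at 1.20 within 0.19 to 1.72. In clone 2 the difference of Ddx58, 3.09, exceeded that of every 1 of the 6, which ran from 0.67 to 1.52, and after quantile normalization it was 2.67 beside 0.15 to 1.05. Over a wider window the 20 measured genes that follow Ddx58 in the order of the chromosome had a median of 1.49 in clone 1 and 1.10 in clone 2, and 1.05 and 0.58 after quantile normalization. The 20 before it had -0.03 and 0.66, and -0.09 and 0.31. The part of the neighbourhood in the signal of Ddx58 was not tested. Ifnb1 is on the same chromosome, and its 3 neighbours above background, Mllt3, Focad and Hacd4, differed from the controls by -0.73, 0.02 and 0.08 in clone 1 and by 0.24, 0.64 and 1.64 in clone 2, and in 0 of 3 did each clone exceed each control.

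**Figure D3:**
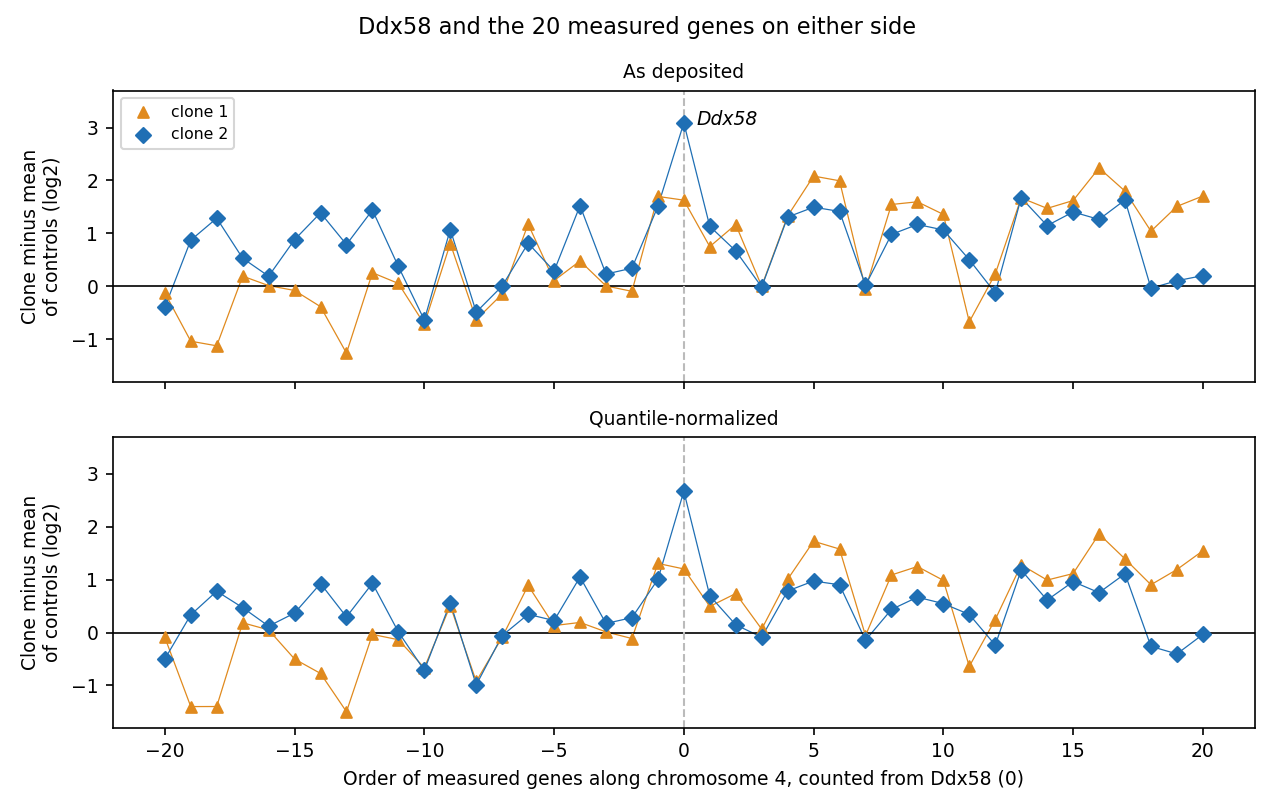
Difference of each clone from the mean of the controls (log2, vertical axis) for Ddx58 and the 20 measured genes on either side of it, placed by their order along chromosome 4, with each point 1 gene in 1 clone. Ddx58 in clone 2 stands at 3.09 above neighbours of at most 1.67, while in clone 1 it stands at 1.63 among neighbours that reach 2.24.

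The other genes of the pathway were read from lists by known role, and the limma test of both clones against both controls called 0 genes of any list, in either direction, on either scale. With clone 1 left out, so that clone 2 stood alone against the controls, the genes called higher were 7 of 27 other RNA and DNA sensors, 6 of 27 regulators of the RIG-I-like receptors, 2 of 23 in the signal relay and 2 of 13 in the interferon receptor list, beside 2.16% of all probe sets, and 0 were called lower. The same fit called no gene among the 11 that clear or edit the cell's own nucleic acids or among the 18 interferons. The list medians of clone 1 minus the controls were 0.34, 0.17, 0.18, 0.24, 0.36 and -0.11, in the same order of lists. Over all probe sets the median was 0.12. After quantile normalization the list medians were -0.02, -0.18, -0.08, -0.06, 0.0025 and -0.11, beside -0.02 over all. The 7 sensors were Cgas, Ifi204, Oas1a, Oas2, Oas3, Oasl1 and Oasl2, and the 6 regulators were Trim25, Usp18, Isg15, Tnfaip3, Herc6 and Zyx. With both clones kept, leaving out dim probe sets gave Oas2, Oasl1 and Usp18 as called, and the variance prior that follows signal gave Oas1a and Oas2. Oasl1 was under the median of all probe sets in MOCK and WT, and at 5.57 beside that median of 5.45 in clone 1. It thus passed the filter through clone 2, where it was high, and its SD between the clones was 3.63. That call is no support from both clones. Among the other sensors, 9 of 27 were at least 1 log2 unit above both controls in clone 2, beside 7.14% of all probe sets and 11.3% of the brighter ones, and 0 of 27 in clone 1, beside 3.57% of all, and 7 of 27 had an unadjusted p under 0.05 and were higher, beside 7.54% of all. Oasl1, an oligoadenylate synthetase-like protein, stood at 4.64 in MOCK and 4.12 in WT, against 5.57 in clone 1 and 10.71 in clone 2. Both controls were under the median of the negative controls, so no fold is given. Oas2, a synthetase that activates RNase L, stood at 6.74, 6.17, 7.27 and 9.81. Ifi204, a DNA sensor, stood at 12.04, 11.44, 12.11 and 14.78. Aim2, the DNA sensor of an inflammasome, was the lowest of all in clone 1, at 5.34 beside 7.31 in MOCK, 7.06 in WT and 8.57 in clone 2. Cgas, which makes the messenger that activates STING, was picked after its values were seen and stood at 9.74, 9.49, 9.65 and 12.01.

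Among regulators of the RIG-I-like receptors, 7 of 27 were at least 1 log2 unit above both controls in clone 2, beside 7.14% of all probe sets and 11.3% of the brighter ones, and 0 in clone 1, beside 3.57% of all. Over both clones 4 of 27 were higher at an unadjusted limma p under 0.05, beside 7.54% of all. Usp18, which removes ISG15 and damps interferon signalling, stood at 10.11 in MOCK and 9.81 in WT, against 10.47 in clone 1 and 14.54 in clone 2. Tnfaip3, the ubiquitin-editing enzyme A20, stood at 7.77, 7.53, 7.75 and 10.34, and Herc6, an ISG15 ligase, at 9.61, 9.50, 9.48 and 12.20. Mul1, a mitochondrial ubiquitin ligase, was highest in clone 1, at 7.79 beside 7.23, 6.05 and 6.89 in MOCK, WT and clone 2. In the signal relay, 3 of 23 passed that distance in clone 2, namely Tank, Irf1 and Traf2, a share near the 11.3% of the brighter probe sets. In clone 1, 2 of 23 passed it, Tbkbp1 and Sting1, beside 3.57% of all. At an unadjusted limma p under 0.05 over both clones, 4 of 23 were higher, beside 7.54% of all. Tank and Irf1 were those called with clone 1 left out. Tank, a scaffold that binds TBK1, stood at 11.01 and 10.32 in the controls, with MOCK first, and at 11.62 and 13.15 in the clones, and Irf1, an inducible factor, at 11.06, 10.43, 10.25 and 13.17. Traf2, an adaptor that binds receptors of the tumour necrosis factor family, stood at 8.21, 7.86, 8.56 and 9.33. Tbkbp1, a TBK1-binding protein, was highest in clone 1, at 7.16 beside 4.90, 5.72 and 5.89. Sting1, the adaptor for the messenger made by CGAS, was named after its values were seen and stood at 8.79 in MOCK and 8.60 in WT, against 10.52 in clone 1 and 9.75 in clone 2.

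The receptor for interferon and its signal held 3 of 13 genes at least 1 log2 unit above both controls in clone 2. The shares were 7.14% of all probe sets and 11.3% of the brighter ones. In clone 1 the count was 0, beside 3.57% of all. Over both clones 0 of 13 had an unadjusted limma p under 0.05, beside 8.75% of all. With 13 genes, these counts of 0 are not a result about the list. Stat2 and Irf9, the partners that carry the interferon signal to DNA, stood at 10.70 and 7.81 in MOCK, 10.52 and 7.57 in WT, 10.15 and 7.93 in clone 1 and 13.28 and 9.89 in clone 2, and both were called with clone 1 left out. Ifngr2, a chain of the receptor for interferon gamma, stood at 10.24, 10.07, 10.76 and 11.25, and Ifnar2, a chain of the receptor for interferon beta, was highest in clone 1, at 12.78 beside 12.17, 11.63 and 12.04. Of 11 genes that clear or edit the cell's own nucleic acids, 0 were that far above both controls in clone 2, beside 7.14% of all probe sets. In clone 1 it was 1 of the 11, Rnaset2a, beside 3.57%. Of these clearance and editing genes, 3 of 11 were higher at an unadjusted limma p under 0.05 over both clones, beside 7.54% of all probe sets. Samhd1, which degrades deoxynucleotides, stood at 13.09, 12.04, 13.21 and 14.04, Rnaseh2b, a subunit of RNase H2, at 8.71, 9.05, 9.51 and 10.001, and Rnaset2a, a lysosomal RNase, at 12.54, 11.84, 13.61 and 13.25. After quantile normalization the counts in clone 2 were 8 of 27 for the other sensors, 6 of 27 for the regulators, 2 of 23 for the relay, 2 of 13 for the receptor list and 0 of 11 for clearance, beside 3.80% of all probe sets. The limma test over both clones then gave 4, 1, 2, 0 and 1 higher at an unadjusted p under 0.05, in the same order of lists. Lower were 0, 1, 0, 0 and 1. Over all 19505 named genes 891 were higher and 819 lower. The list medians in clone 2 were 0.69 for the other sensors, 0.44 for the regulators, 0.50 for the relay and 0.24 for the receptor list. Clearance, with 0 genes at that distance, had the highest of these medians, 0.70, and the interferons had 0.05. Over all probe sets the median was 0.24. After quantile normalization the list medians were 0.19, 0.02, 0.17, 0.10, 0.17 and -0.03, in the same order, beside -0.03 over all. The high genes were thus a minority of each list that held any.

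**Figure D4:**
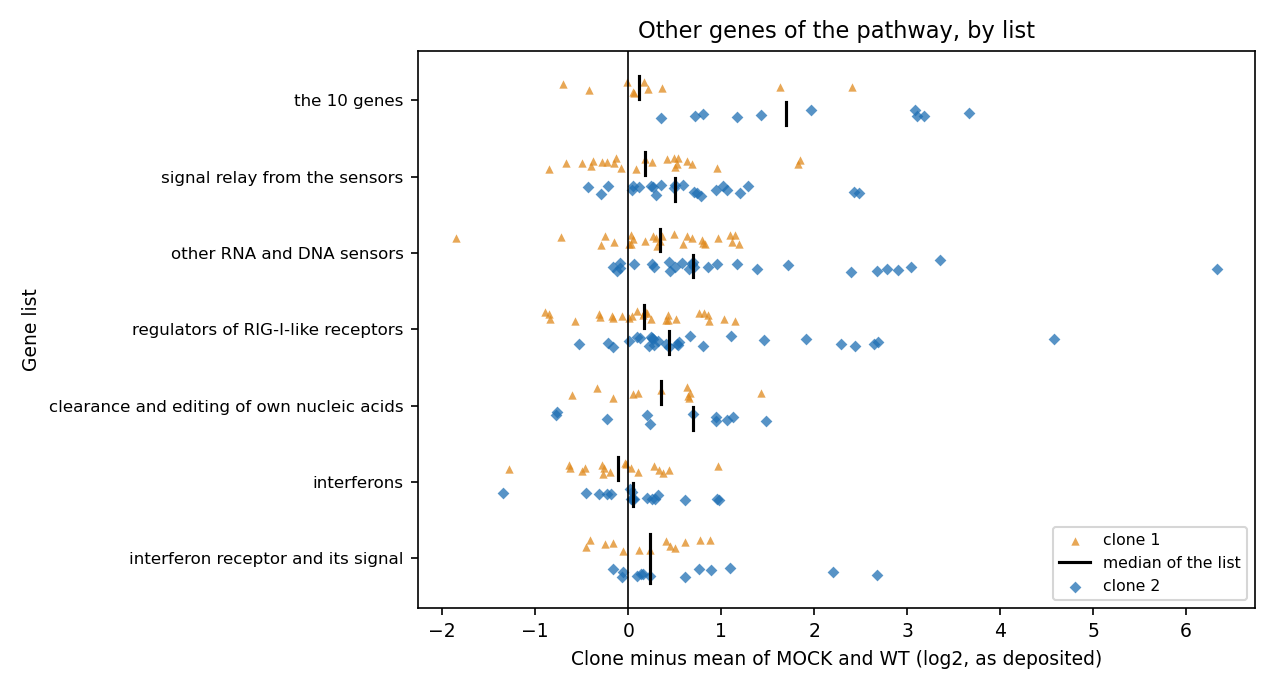
Difference of clone 1 and clone 2 from the mean of the controls (log2, as deposited, horizontal axis) for the 10 genes and for each list of other pathway genes, with each point 1 gene and each black bar the median of the list. The 10 genes have a median of 1.70 in clone 2, and lists of other sensors and regulators hold a few genes above 2 in clone 2 around medians of 0.69 and 0.44.

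Promoter sequences are shown for the sensors of the table that were high in clone 2, namely Ddx58, Ifih1 and Tlr3, and for Ifnb1, the gene the sensors act on. They come from the RefSeq promoter table of build GRCm38.p6, which matched 8 of the 10 genes, Dhx58 and Zbp1 being the others. Capitals mark the core that interferon regulatory factors bind, AANNGAAA, and the NF-kB pattern GGGNNNTTC, each searched on both strands. The stretches are chr4:88522895-88522994 for Ifnb1, chr4:40239826-40239925 for Ddx58, chr2:62646256-62646355 for Ifih1 and chr8:45410381-45410480 for Tlr3, all on the minus strand and printed 5′ to 3′ along the gene. The Ifnb1 stretch covers bases 200 to 101 before the start of the gene, and the others cover the last 100 bases before it.
Ifnb1: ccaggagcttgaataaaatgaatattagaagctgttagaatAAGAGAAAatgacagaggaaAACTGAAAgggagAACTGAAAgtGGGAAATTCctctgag
Ddx58: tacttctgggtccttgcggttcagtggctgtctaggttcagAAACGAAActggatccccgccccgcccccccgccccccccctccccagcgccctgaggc
Ifih1: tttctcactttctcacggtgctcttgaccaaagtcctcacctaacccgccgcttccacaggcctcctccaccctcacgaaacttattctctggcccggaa
Tlr3: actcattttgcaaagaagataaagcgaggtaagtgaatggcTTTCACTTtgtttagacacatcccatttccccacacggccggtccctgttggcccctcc

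Ifnb1 carried 3 matches to the factor core and 1 to the NF-kB pattern within these 100 bases, and Ddx58 and Tlr3 carried 1 factor core each, at 59 bases before the start in both genes, while the stretch of Ifih1 carried neither pattern. In the 250 bases before the start, the factor core was found in 3 of the 8 member promoters, Ddx58, Tlr3 and Ifnb1, and in 21.3% of 32851 promoters of that length. The NF-kB pattern was found in Ifnb1 and Tlr3, or 2 of 8, and in 11.8% of all. A shortened core of the interferon-stimulated response element, GAAANNGAA, which can overlap the factor core, was in Ifih1 alone, or 1 of 8, and in 7.13% of all. The element bound by STAT dimers, TTCNNNGAA, was in 0 of 8 and in 7.02% of all. With the 50 bases after the start included, the shortened response element was in Ddx58 and Ifih1, or 2 of 8, and in 8.56% of all. The shortened response elements after the start are printed along the gene, with that of Ddx58 on the opposite strand. Factor cores of Ifih1, at bases 29 to 36 and 35 to 42, overlap its printed element.
Ddx58, chr4:40239814-40239822, bases 4 to 12 counted from 1 at the start: TTCGATTTC
Ifih1, chr2:62646215-62646223, bases 33 to 41: GAAACAGAA

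Mavs, Tbk1, Irf3 and Irf7 held no match to any of the 4 patterns in either window. A match is a run of letters and not a site shown to be bound in these cells.

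The profile of Ddx58 over the 4 arrays was compared with 8360 other named genes brighter than the negative controls, by the Euclidean distance between log2 values centred on each gene's mean. The 6 nearest were Rnf31, a subunit of the linear ubiquitin ligase, at a distance of 0.19, Ifi209 at 0.28, Pdxk at 0.35, Shank1 at 0.36, Apol9a at 0.39 and Gadd45b at 0.41. Rnf31 stood at 8.37 in MOCK and 7.76 in WT, against 9.82 in clone 1 and 11.14 in clone 2. No other member was among them, and the nearest member, Dhx58, was at 1.39 and the next, Tlr3, at 1.51. The distances rest on 4 arrays that all genes share.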

How the data were processed

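Total RNA of 4 samples, 1 array each, was labelled with biotin, per the labels' protocols. The authors deposited normalized log2 signals, made with the Transcriptome Analysis Console, per the submitters' processing notes; its version, the normalization method and the genome build were not given in the sources used here. Groups came from the titles, since a cell label on all 4 samples names the knockout. Each column matched 1 sample. Of 28846 features, 6640 controls were left out and 22206 probe sets tested. Names came from the platform annotation (19572 probe sets with 1 symbol, 2634 with none), and the probe set with the highest mean stood for a gene. RefSeq (GRCm38.p6) gave gene order and promoters only.

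The test was limma 3.58.1 (R 4.3.3; lmFit, eBayes; knockout minus control, no covariate), 2-sided, with Benjamini-Hochberg adjustment over all probe sets, and was tested on simulated data. SEs are moderated, and intervals are at 95%. Fits without each array, with quantile normalization, median centring, a filter at the median signal, and trend with robust were alternatives. The 2 arrays per group limit the precision.

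The members, lists and tests were chosen with earlier results of these data known. All members were named. From each list the rule took called genes, the 3 with the largest difference in clone 2 and the 1 in clone 1, if any array exceeded the 75th percentile of the negative controls. It also took the 5 neighbours on either side of Ddx58 and Ifnb1, and the 6 genes most like Ddx58. Motifs and the window of 20 genes were chosen after the values were seen.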

Additional observations from a re-analysis of the deposited data

How the results depend on the processing

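Of the 22206 probe sets, limma called 9 as deposited, 1 after quantile normalization, 196 with dim probe sets left out, 340 with trend and robust, and 0 to 529 when 1 array was left out, with 529 without clone 1. Leaving out a clone and quantile-normalizing the rest, an alternative chosen after seeing the data, gave 804 without clone 1 and 250 without clone 2. Of the 10 genes it called 0 as deposited, 0 after quantile normalization, 2 with dim probe sets left out (Ddx58 and Ifih1), 2 with trend and robust (Ddx58 and Irf7), and 0 to 5 when 1 array was left out; the 5 came without clone 1, and 4 when the rest was also quantile-normalized. The filter tests fewer probe sets, those at or above the median mean signal, so Irf7 and Ifnb1 were not in it. It gave each member it tested the same SE, 0.55, beside 0.50 for Ddx58 and 0.87 for Ifih1 without the filter. The unadjusted limma p of Ifih1 was 0.0505 without the filter and 0.000516 with it. The cause of these changes and of the others was not tested. The median of the 10 genes in clone 2 was 1.70, or 1.23 after quantile normalization, and 1.77 to 2.07 against a single control. Without clone 2, knockout minus control changed sign for Tlr3 (-0.0151, and -0.38 with quantile normalization) and Zbp1 (-0.43 and -0.58), and with quantile normalization also for Ifih1 (-0.15), Dhx58 (-0.11), Mavs (-0.0137) and Irf3 (-0.0807). Over the fits with 1 array left out as deposited, Ifih1 ranged from 0.17 to 3.67 and Dhx58 from 0.0554 to 3.11. Tlr3 ranged from -0.0151 to 1.96 and Zbp1 from -0.43 to 3.19. For Mavs the range was 0.0163 to 1.15, and for Irf3 0.22 to 1.43. Tbk1, at -0.17 in all arrays, ranged from -0.70 to 0.36 and was above 0 without clone 1 (0.36) or MOCK (0.20). Ddx58, Irf7 and Ifnb1 kept their direction in all fits. Dim signal limits Irf7, Ifnb1 and the low arrays of Dhx58 and Zbp1. No paired analysis was possible because the control titles carry no number.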
